A study of Homo sapiens with 8 samples.

Results

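SLC35F5 and ADGRA2 are a pair of genes that were picked out because both rose strongly in the libraries edited at the long non-coding RNA HOTSCRAMBL, with each of the editors used. They are 2 of the 63140 genes in the count table and 2 of the 24057 with enough reads to be tested. The members were selected on their measured fold changes of edited over control libraries in these same data. Because the choice rests on the rise itself, the comparisons of edited with control libraries are given for these genes as a description, without a test. The 5 other genes of the SLC35F subfamily serve as background.

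The 8 libraries were labelled as the human acute myeloid leukaemia lines MOLM13 and OCI-AML4, collected 3 days after nucleofection, and fall into 4 groups of 2. In the knockout (KO) arm, Cas9 ribonucleoprotein was aimed either at AAVS1, a site used as a neutral control and labelled WT, or at HOTSCRAMBL. In the other arm a cytosine base editor (CBE), which converts C to T without cutting both strands, was aimed at the same targets, so each editor had its own AAVS1 control. Every group held 1 library labelled MOLM13 (replicate 1) and 1 labelled OCI-AML4 (replicate 2). The libraries differed little by this label: 119 of the 24057 tested genes (0.495%) passed between the labelled lines, against 2108 between the KO groups and 2124 between the CBE groups, and libraries of one label deviated together from their group means with correlations of only 0.0085 to 0.0245. The line is therefore given as labelled throughout, and whether the libraries come from 2 lines was not tested. The labels mention no cloning of the edited cells, and do not say that the replicates came from separate experiments beyond the line, so the p-values measure only the spread between these libraries. RNA was isolated by chromatin isolation by RNA purification (ChIRP): cells were crosslinked with glutaraldehyde, sonicated and incubated with biotinylated probes, and the RNA held on streptavidin beads was sequenced. The target of the probes is not given in the sources used here and no library of unselected RNA was analysed here, so a level below is an amount recovered on the beads, and more RNA per cell, more cells containing it and better recovery cannot be told apart. No gene of the table carries the name HOTSCRAMBL, and its level was not analysed here.

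Total counts ranged from 20548300 to 37970163 per library, with 21945 to 26083 genes detected. All 7 markers of myeloid leukaemia cells were detected in every group, with summed levels of 1528 to 2037 in counts-per-million units (CPM). Of the markers of other lineages, lymphocyte genes summed to at most 13.8 CPM with CD3E at 0 throughout, erythroid genes to at most 1.66 CPM with HBB and HBA2 at 0, fibroblast and pericyte genes to at most 1.60 CPM with COL3A1 and LUM at 0, and epithelial genes to at most 5.404 CPM with KRT19 at 0.

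SLC35F5 belongs to the SLC35 solute carriers, multi-pass membrane proteins of the Golgi and endoplasmic reticulum best known for moving nucleotide sugars into the lumen for glycosylation; the substrates of the F subfamily are less well defined. ADGRA2, also called GPR124, is an adhesion G protein-coupled receptor. In brain endothelium it works with the membrane-anchored protein RECK as a co-activator of WNT7A and WNT7B, passing the signal through Frizzled receptors and LRP co-receptors to beta-catenin, and it is known for its part in brain angiogenesis and the blood-brain barrier.

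SLC35F5 (ENSG00000115084) lies on the minus strand of chromosome 2, from 113705011 to 113756693 in GRCh38, with 13398 bases of annotated exon. The 250 bases before the RefSeq start of SLC35F5 (chr2:113756643-113756892, minus strand, GRCh38.p14) are shown because this gene had the highest level of its family, and those of SLC35F2 (chr11:107858788-107859037, minus strand) because SLC35F2 had the next highest median level of the F subfamily. Capitals mark the motifs found.

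SLC35F5: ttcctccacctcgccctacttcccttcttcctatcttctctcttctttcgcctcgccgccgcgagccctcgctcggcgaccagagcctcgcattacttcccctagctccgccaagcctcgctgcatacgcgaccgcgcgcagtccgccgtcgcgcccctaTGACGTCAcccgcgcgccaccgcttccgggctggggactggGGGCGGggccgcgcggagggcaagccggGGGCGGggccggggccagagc

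SLC35F2: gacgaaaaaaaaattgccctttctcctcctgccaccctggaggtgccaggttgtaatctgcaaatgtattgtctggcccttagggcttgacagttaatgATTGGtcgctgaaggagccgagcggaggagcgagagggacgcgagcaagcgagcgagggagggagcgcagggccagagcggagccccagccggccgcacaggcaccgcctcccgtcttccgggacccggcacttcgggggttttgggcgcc

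In SLC35F5 the capitals mark 1 cyclic AMP response element (TGACGTCA) that begins 90 bases before the start and 2 GC boxes (GGGCGG) that begin 49 and 21 bases before it. In SLC35F2 they mark 1 CCAAT box, read on the other strand, that begins 151 bases before the start. The search covered both strands of the whole 300-base RefSeq window, which runs on for 50 bases past the start, and the motifs do not overlap. Besides those shown it looked for the E-box CACGTG and a HOX-type motif TGATTTAT, which SLC35F5 and SLC35F2 lack in this window. Among 35116 RefSeq promoters of the same length, 44.95% held a GC box, 34.61% a CCAAT box, 7.26% the E-box, 1.85% the cyclic AMP response element and 0.846% the HOX-type motif. The cyclic AMP response element was added to the search after the sequence had been read. The window of SLC35F5 held 38 CpG dinucleotides against a median of 14, more than 90.09% of promoters, and that of SLC35F2 held 27.

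SLC35F5, the solute carrier, was at 402.9 and 442 CPM in the AAVS1 KO libraries (MOLM13 first, then OCI-AML4, here and below) and at 1953 and 2186 CPM in the HOTSCRAMBL KO libraries. With base editing it was at 457.5 and 534.5 CPM in the AAVS1 libraries and at 1622 and 1740 CPM in the HOTSCRAMBL libraries. All 4 HOTSCRAMBL libraries lay above all 4 AAVS1 libraries, which is what the gene was chosen for. AAVS1 KO was lowest, then AAVS1 CBE, HOTSCRAMBL CBE and HOTSCRAMBL KO. How many tested genes have groups of 2 libraries that separate likewise was not counted. The AAVS1 groups were not shown to differ (edgeR adjusted p = 0.991). The reads behind these levels numbered 10279 to 15248 in the controls and 38288 to 58543 after HOTSCRAMBL editing, so counting error was small beside the spread between libraries. By CPM, SLC35F5 ranked 312th, 245th, 246th and 179th of the tested genes in the control libraries. In the HOTSCRAMBL libraries it ranked between 33rd and 37th. Per kilobase of exon its ranks were 1114th, 932nd, 890th and 719th in the controls and between 185th and 230th after HOTSCRAMBL editing. The fitted log2 fold change was 2.29 (SE 0.0859) with KO and 1.76 (SE 0.0835) with CBE, and the pairs of one labelled line gave 2.28 and 2.31 with KO and 1.83 and 1.70 with CBE.

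ADGRA2 (ENSG00000020181), the receptor gene, lies on the plus strand of chromosome 8, from 37784191 to 37844896 in GRCh38, with 7084 bases of exon. It was at 164.9 and 224.7 CPM in the AAVS1 KO libraries and at 941.1 and 1325 CPM in the HOTSCRAMBL KO libraries. In the base-editing arm it was at 172.2 and 227.3 CPM with AAVS1 and at 402.9 and 465.4 CPM with HOTSCRAMBL. The AAVS1 groups were lowest and overlapped each other. The HOTSCRAMBL CBE libraries lay above them and the HOTSCRAMBL KO libraries above all others, an order that was not set against that of all tested genes. Between 4206 and 6433 reads lay behind the control values and between 11820 and 29641 behind the others. The fitted log2 fold change was 2.54 (SE 0.106) with KO and 1.13 (SE 0.104) with CBE, and single pairs gave 2.51 and 2.56 with KO and 1.23 and 1.03 with CBE.

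**Figure D1:**
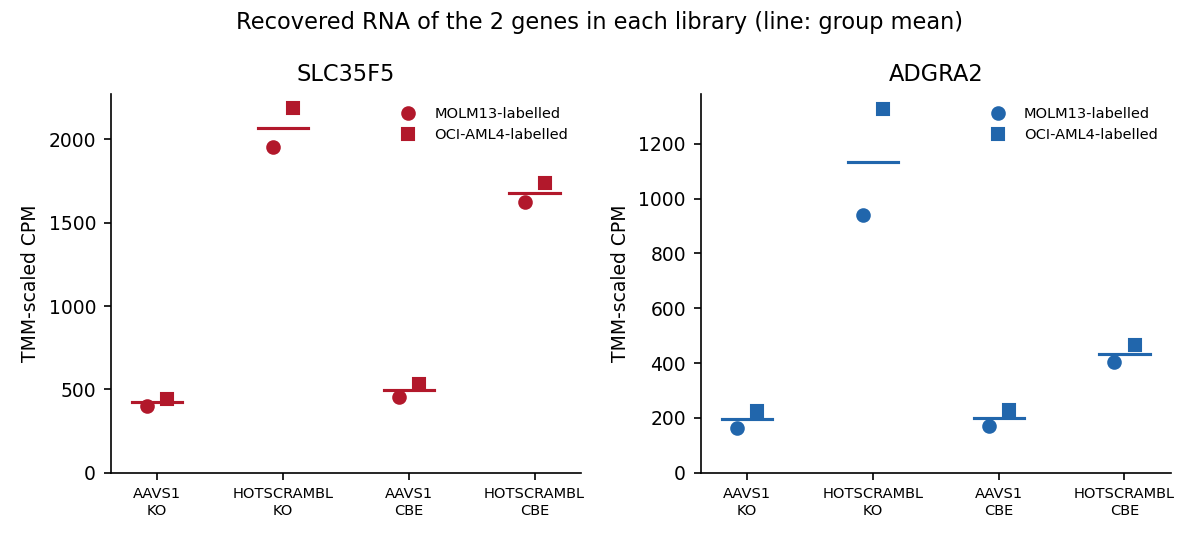
Level of SLC35F5 and ADGRA2 in each of the 8 libraries, in TMM-scaled CPM on a linear axis from 0, by group, with circles for MOLM13, squares for OCI-AML4 and lines for group means. Both genes lie highest in the HOTSCRAMBL KO libraries, at 1953 and 2186 for SLC35F5 and at 941.1 and 1325 for ADGRA2.

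Both genes passed the threshold of an adjusted p below 0.05 (edgeR's quasi-likelihood test, Benjamini-Hochberg adjustment) with both editors. They were chosen for that rise, so the passing is a description and supports nothing. That threshold was passed by 8.76% of all tested genes with KO (4.51% higher and 4.25% lower) and by 8.83% with CBE (4.56% higher and 4.27% lower), and 398 genes were higher with both. Ranked by the smaller of their log2 fold changes, SLC35F5 came 14th of these 398 and ADGRA2 110th, against a median smaller fold change of 0.88. The fold changes of all tested genes had a median of -0.01 with KO and -0.02 with CBE. With no scaling beyond total counts these medians moved to -0.17 and -0.15, and the calls split into 840 higher and 1695 lower with KO and 782 higher and 1616 lower with CBE. Both genes kept a positive value there, of 2.13 and 1.63 for SLC35F5 and 2.38 and 0.99 for ADGRA2.

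**Figure D2:**
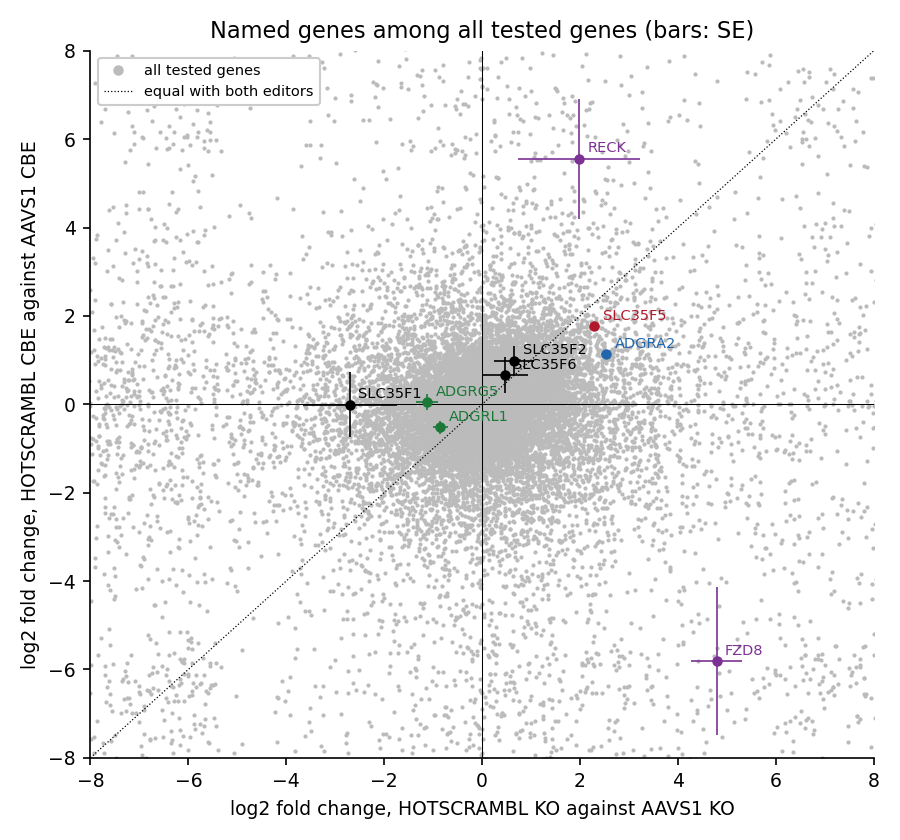
Log2 fold change of HOTSCRAMBL over AAVS1 with KO (horizontal) and with CBE (vertical) for every tested gene (grey), with SE bars on the named genes: the members, SLC35F relatives (black), ADGRG5 and ADGRL1 (green) and RECK and FZD8 (purple); 442 genes lie beyond the axes, which end at 8 log2 units. SLC35F5 and ADGRA2 lie in the upper right, SLC35F5 at 2.29 and 1.76 and ADGRA2 at 2.54 and 1.13.

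The size of the rise differed between editors, more so for ADGRA2. The genes were chosen on the rise with each editor and not on their difference, but the difference comes from those same fold changes. Its p-values are therefore not free of that choice. The fold change with KO exceeded that with CBE by 1.40 log2 units (SE 0.148, edgeR adjusted p = 7.99e-07) for ADGRA2 and by 0.53 (SE 0.117, edgeR adjusted p = 0.00837) for SLC35F5, in a contrast where 3.19% of all tested genes passed. For ADGRA2 the call was kept under all 16 alternatives. For SLC35F5 it was lost when the labelled line was left out of the model (0.53, adjusted p = 0.109) and when any 1 of 6 libraries was left out (0.48 to 0.55, adjusted p = 0.067 to 0.111), those being both AAVS1 KO libraries, both HOTSCRAMBL KO libraries and the OCI-AML4 libraries of AAVS1 CBE and HOTSCRAMBL CBE.

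Compared directly, the HOTSCRAMBL KO libraries exceeded the HOTSCRAMBL CBE libraries by 1.37 log2 units (SE 0.0986, edgeR adjusted p = 2.40e-10) for ADGRA2 and by 0.30 (SE 0.0797, edgeR adjusted p = 0.0174) for SLC35F5, where 8.47% of all tested genes passed. The genes were chosen for their rise in these same HOTSCRAMBL libraries. The p-values of this comparison are therefore not free of that choice either, and it is no separate support for the difference above. The SLC35F5 call was again lost without the line term (0.30, adjusted p = 0.131) and without any 1 of the 4 HOTSCRAMBL libraries (0.26 to 0.33, adjusted p = 0.0968 to 0.184). The difference between the AAVS1 groups, KO minus CBE, was -0.23 log2 units (SE 0.0854, adjusted p = 0.991) for SLC35F5 and -0.04 (adjusted p = 0.997) for ADGRA2. In that contrast of controls 0.00% of tested genes passed, 918 did so at an unadjusted p below 0.05, and DESeq2 called 35.

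Per kilobase of exon the members stood at like levels in the controls. Of the 7084 exon bases of ADGRA2, 1629 overlap exons of the gene BRF2 on the other strand, where reads were not counted. Its levels per kilobase are therefore understated, by the same overlap in every library. SLC35F5 was at 30.07, 32.99, 34.15 and 39.9 CPM per kilobase in the AAVS1 libraries, and ADGRA2 at 23.27, 31.73, 24.31 and 32.08. The ratio of SLC35F5 to ADGRA2 on this scale was 1.29 and 1.04 in the AAVS1 KO libraries and 1.41 and 1.24 in the AAVS1 CBE libraries. It was 1.10 and 0.872 after HOTSCRAMBL KO and 2.13 and 1.98 after HOTSCRAMBL CBE. Only the HOTSCRAMBL CBE libraries had more than 1.41 times as much SLC35F5 as ADGRA2 on this scale.

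ADGRA2 also differed with the labelled line. In all 4 groups the MOLM13 library was below the OCI-AML4 library, with a fitted log2 difference of -0.39 (SE 0.0733, edgeR adjusted p = 0.00763), where 0.495% of all tested genes passed. This call was lost when any AAVS1 library or either HOTSCRAMBL KO library was left out (-0.39 to -0.34, adjusted p = 0.168 to 0.274), and kept without either HOTSCRAMBL CBE library. SLC35F5 was also lower under MOLM13 in all 4 groups, by less (-0.15, SE 0.0582, adjusted p = 0.377), and that difference passed with DESeq2 (adjusted p = 0.0391) and limma-voom (adjusted p = 7.18e-04). The difference of the HOTSCRAMBL effect between the lines was 0.05 log2 units for SLC35F5 and 0.07 for ADGRA2 (adjusted p = 0.996 for both, edgeR). There 0.00% of tested genes passed, with 985 at an unadjusted p below 0.05, 68 called by DESeq2 and 2 by edgeR's older quasi-likelihood method.

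Other RNAs also differed between the AAVS1 and HOTSCRAMBL libraries, some of them in the opposite direction to both genes. Mitochondrially encoded RNA made up 6.77% to 7.23% of counts in the AAVS1 libraries and 10.2% to 11.85% in the HOTSCRAMBL libraries, and messenger RNAs of ribosomal proteins 1.32% to 1.60% against 3.20% to 4.46%. Among the 7 myeloid markers, read singly after their values had been seen, LYZ, lysozyme, was at 120 to 141 CPM with AAVS1 KO and 506 to 702 with HOTSCRAMBL KO, beside 116.2 to 142.2 with AAVS1 CBE and 147.7 to 152.2 with HOTSCRAMBL CBE. MPO, myeloperoxidase, was at 46.96 to 54.13 and 27.8 to 32.14 CPM with KO and at 40.45 to 51.82 and 26.63 to 30.79 CPM with CBE, in the same order. The ranges of CD33 and CSF3R lay lower in the HOTSCRAMBL libraries with both editors. Given in that order, FLT3 was at 216.8 to 234.4 and 173.2 to 187.3 CPM with KO. With CBE it was at 240 to 240.9 and 263.3 to 276.4 CPM. SPI1 was at 271.1 to 286.2 and 254.4 to 270.6 CPM with KO, and its CBE groups overlapped. PTPRC overlapped between the KO groups and was higher in the HOTSCRAMBL CBE libraries. These marker values are ranges of 2 libraries, given without a test. How many of all tested genes have ranges that separate likewise was not counted. The part of these RNAs in the levels of SLC35F5 and ADGRA2 was not tested.

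The other SLC35F genes were far less abundant than SLC35F5 and none passed the threshold with either editor in the edgeR test. SLC35F2 ranged from 9.21 to 26.1 CPM over the 8 libraries and SLC35F6 from 5.69 to 18.2 CPM. SLC35F2 had a log2 fold change of 0.66 (SE 0.407, adjusted p = 0.396) with KO and 0.99 (SE 0.320, adjusted p = 0.0527) with CBE. SLC35F6 had 0.46 (SE 0.469, adjusted p = 0.648) with KO and 0.66 (SE 0.416, adjusted p = 0.407) with CBE. The SLC35F2 difference with CBE passed at a minimum count of 50 (0.99, adjusted p = 0.0371) and with DESeq2 (0.98, adjusted p = 0.00728).

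SLC35F1 was lower still, between 0 and 8.32 CPM. Its AAVS1 KO libraries were at 3.76 and 8.32 CPM and its HOTSCRAMBL KO libraries at 0 and 1.79 CPM, a log2 value of -2.70 (SE 0.962, adjusted p = 0.0853), and its CBE value was -0.0048 (adjusted p = 1). The SLC35F1 difference with KO passed with DESeq2 (-3.60, adjusted p = 0.00922) and with edgeR's older quasi-likelihood method (-3.56, adjusted p = 0.0248). SLC35F3 was at 0 in 7 libraries with at most 12 reads, SLC35F4 at 0 in 4 libraries with at most 54 reads, and neither had enough reads for a test.

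**Figure D3:**
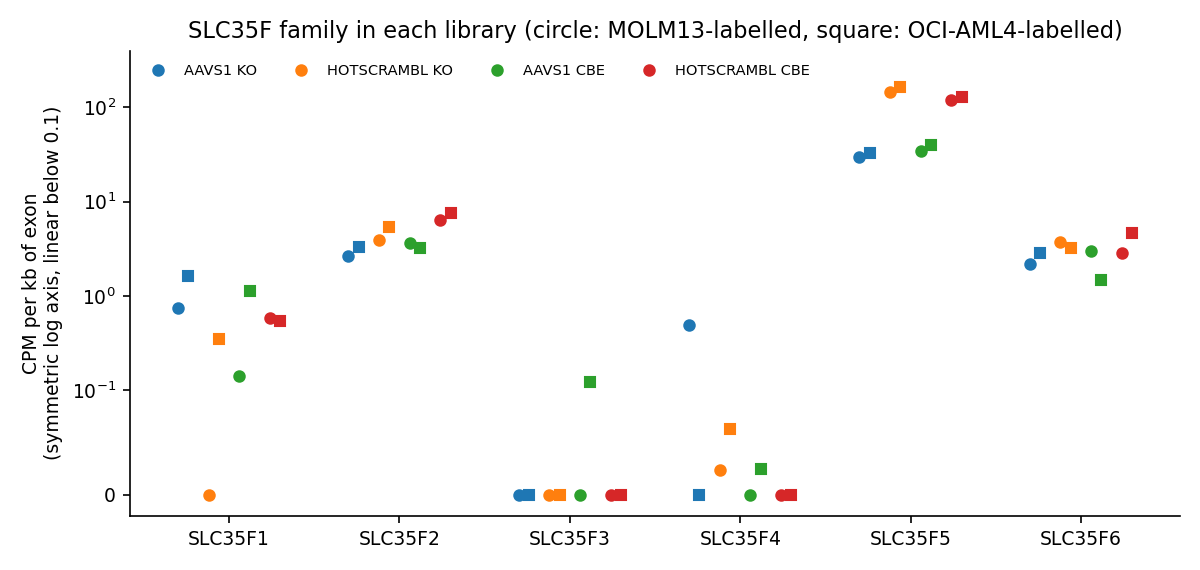
Level of the 6 SLC35F genes in each library, in CPM per kilobase of exon on a log axis that is linear near 0, with circles for MOLM13 and squares for OCI-AML4. SLC35F5 lies between 30.07 and 163.1, and the highest value of any other member is 7.51, for SLC35F2.

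Across the SLC35 family as a whole, 23 of the 30 genes besides SLC35F5 were tested. With KO 0 rose and 1 fell, SLC35E2B, from 91.8 and 89.1 CPM to 50.5 and 52.8 CPM (-0.80, SE 0.196, edgeR adjusted p = 0.00772). With CBE 2 rose and 0 fell: SLC35E3 went from 54.2 and 57.6 CPM to 98.8 and 100.2 CPM (0.83, SE 0.170, edgeR adjusted p = 0.00151), and SLC35E1 from 45.7 and 45.0 CPM to 77.9 and 74.3 CPM (0.75, SE 0.187, edgeR adjusted p = 0.00908). These E-subfamily genes encode carriers whose substrates are, like those of the F subfamily, not well defined. Thus 1 and 2 of the 23 passed, beside 8.76% of all tested genes with KO and 8.83% with CBE. The median log2 fold change of the 23 was 0.25 with KO and 0.44 with CBE, beside -0.01 and -0.02 for all genes. Leaving out any 1 of the 4 libraries of the contrast ended the call for SLC35E2B (-0.95 to -0.68, adjusted p = 0.0515 to 0.184) and SLC35E1 (0.68 to 0.81, adjusted p = 0.0721 to 0.254), and any but the OCI-AML4 AAVS1 library that for SLC35E3 (0.74 to 0.89, adjusted p = 0.0561 to 0.122). SLC35F5 had the highest group mean per kilobase of the family in all 4 groups: 31.53 and 37.02 in the AAVS1 groups, followed by SLC35C2 at 16.04 and 15.53, and 154.5 and 125.5 in the HOTSCRAMBL groups, followed by SLC35C2 at 14.75 with KO and by SLC35B2, a carrier of the sulfate donor PAPS, at 19.6 with CBE.

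The adhesion receptors were read in the same way. Of the 31 other adhesion receptors 17 were tested, and with KO 0 rose and 3 fell, where 4.25% of all tested genes fell. ADGRL1, a latrophilin, fell from 181.6 and 160.1 CPM to 106 and 84.5 CPM (-0.85, SE 0.161, edgeR adjusted p = 6.63e-04). ADGRG5 fell from 81.0 and 69.2 CPM to 30.0 and 39.0 CPM (-1.12, SE 0.224, edgeR adjusted p = 0.00121). CELSR1, a planar polarity cadherin, fell from 182 and 200 reads to 1 and 20 reads (-3.90, SE 1.01, edgeR adjusted p = 0.0113).

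With CBE 0 of these receptors rose and 2 fell, where 4.27% of all tested genes fell: ADGRL1 again (-0.52, SE 0.148, edgeR adjusted p = 0.0255) and ADGRB1, from 21.4 and 21.1 CPM to 7.90 and 10.5 CPM (-1.25, SE 0.368, edgeR adjusted p = 0.0310). ADGRG5 was at 67.2 and 75.0 CPM with AAVS1 and 64.3 and 84.0 CPM with HOTSCRAMBL in that arm, and its effects differed between editors (-1.17, SE 0.290, edgeR adjusted p = 0.0217). The median of the 17 was -0.30 with KO and -0.52 with CBE, beside -0.01 and -0.02 for all genes. Each of these calls ended when certain single libraries were left out: ADGRL1 with KO (-0.72 to -0.66, adjusted p = 0.0882 to 0.111) without the AAVS1 KO MOLM13 or HOTSCRAMBL KO OCI-AML4 library, ADGRG5 with KO (-1.01 to -0.85, adjusted p = 0.0623 to 0.132) without the MOLM13 library of either KO group, and CELSR1 (-7.19 to -2.99, adjusted p = 0.0662 to 0.195) without any of the 4. The CBE calls ended without 5 libraries for ADGRL1 (-0.57 to -0.28, adjusted p = 0.0709 to 0.639; all AAVS1 libraries and the MOLM13 HOTSCRAMBL CBE library) and without any but the HOTSCRAMBL KO libraries for ADGRB1 (-1.56 to -0.87, adjusted p = 0.0753 to 0.585).

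Of the nearest relatives of ADGRA2, ADGRA1 had no read in any library, where a very low level may go undetected, and ADGRA3 had 2 reads in 1 library. Per kilobase ADGRA2 led the 32 adhesion receptors in all 4 groups. Its values are understated here too, because reads in its overlap with BRF2 were not counted, and overlaps of the other receptors were not examined. In the controls ADGRE5, the leukocyte receptor CD97, came close, at 21.61 against 27.5 CPM per kilobase with KO and 25.95 against 28.2 with CBE. After HOTSCRAMBL editing ADGRA2 was at 159.9 with KO and 61.28 with CBE, and ADGRE5 at 20.03 and 30.59.

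Genes of the WNT7 pathway, in which ADGRA2 acts in endothelium, were only partly detected. Of the ligands, WNT7A had no read in any library and WNT7B between 0 and 36 reads, too few for a test. RECK, the partner of ADGRA2, had 10 and 15 reads with AAVS1 KO and 32 and 52 with HOTSCRAMBL KO (1.98, SE 1.25, adjusted p = 0.411). With CBE it went from 1 and 4 reads to 115 and 128 (5.56, SE 1.36, edgeR adjusted p = 0.00724), a fitted value that depends on the prior count given to so few control reads. That call ended when any 1 of the 4 CBE libraries was left out (5.09 to 6.54, adjusted p = 0.0788 to 0.142). The RECK effects of the editors were not shown to differ (-3.58, SE 2.54, adjusted p = 0.578).

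Among the 11 tested of 13 WNT receptors and co-receptors, RECK included, the other call was FZD8, a Frizzled receptor. It went from 0.627 and 2.48 CPM to 48.2 and 37.5 CPM with KO (4.79, SE 0.526, edgeR adjusted p = 2.84e-07). With CBE it went the other way, from 176 and 62 reads to 0 and 4 (-5.81, SE 1.67, edgeR adjusted p = 0.0268), and the editors' effects differed (10.6, SE 1.54, edgeR adjusted p = 9.56e-05). The size of the last 2 values depends on the prior count. The CBE call ended without any 1 of the CBE libraries or of the HOTSCRAMBL KO libraries (-9.87 to -4.36, adjusted p = 0.0534 to 0.434), and the KO call was kept without each library.

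Downstream, all 9 transducers were tested. DVL1, which relays the Frizzled signal, fell with KO (-0.57, SE 0.180, edgeR adjusted p = 0.0478) and with CBE (-0.58, SE 0.171, edgeR adjusted p = 0.0301). With CBE APC, a scaffold of the beta-catenin destruction complex, fell (-0.68, SE 0.187, edgeR adjusted p = 0.0201) and CSNK1A1, the kinase that primes beta-catenin, rose (0.51, SE 0.134, edgeR adjusted p = 0.0137). The DVL1 call with KO ended without each of the 8 libraries in turn (-0.76 to -0.41, adjusted p = 0.0711 to 0.442) and that with CBE without any but the HOTSCRAMBL KO libraries (-0.77 to -0.36, adjusted p = 0.0501 to 0.574). The APC call ended without either AAVS1 CBE library or the MOLM13 HOTSCRAMBL CBE library (-0.69 to -0.40, adjusted p = 0.175 to 0.584), and the CSNK1A1 call without any of the 4 CBE libraries (0.47 to 0.55, adjusted p = 0.132 to 0.241). None of the 3 tested nuclear factors and none of the 4 tested target genes of the pathway passed with either editor. Over the 27 tested of the 35 pathway genes, 1 rose and 1 fell with KO, with a median of 0.04, and 2 rose and 3 fell with CBE, with a median of -0.21. Over all tested genes 8.76% passed with KO and 8.83% with CBE, with medians of -0.01 and -0.02.

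ADGRA2 is best known from endothelial cells, so markers of these were read beside it. Their summed level was 99.6 to 100.4 CPM in the AAVS1 KO libraries, 151.2 to 183.3 CPM in the HOTSCRAMBL KO libraries, 96.2 to 97.6 CPM in the AAVS1 CBE libraries and 104.0 to 110.4 CPM in the HOTSCRAMBL CBE libraries. Nearly all of it was PECAM1, an adhesion molecule that myeloid cells also carry, which was read singly after its values had been seen. PECAM1 rose with KO (0.74, SE 0.149, edgeR adjusted p = 0.00125), a call lost without the MOLM13 library of either KO group (0.61 to 0.71, adjusted p = 0.0811 to 0.0887), and had a CBE value of 0.21 (SE 0.148, adjusted p = 0.482). Of the endothelial genes KDR was at 0 in every library, CDH5, TEK and VWF reached at most 1.61 CPM, and CLDN5 at most 4.95 CPM.

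The genes that lie next to SLC35F5 and ADGRA2 on the chromosome were read beside them. The microRNA gene MIR4782 lies inside SLC35F5 without touching its exons and had 0 to 14 reads. BRF2, which encodes a factor of RNA polymerase III on the opposite strand, overlaps the 3′ end of ADGRA2 by 1629 bases, all of them exonic in both genes. Reads in an overlap of genes were not counted by the authors' settings, and BRF2 had 223 to 656 reads against at least 4206 for ADGRA2. The overlap takes 1629 of the 2733 exon bases of BRF2 and 1629 of the 7084 of ADGRA2, so both counts are understated. BRF2 had a log2 fold change of -0.07 (SE 0.405, adjusted p = 0.949) with KO and 0.79 (SE 0.345, adjusted p = 0.187) with CBE.

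The nearest tested genes not overlapping them were LINC02936 (0.933 kb) and ACTR3-AS1 (74.4 kb) for SLC35F5 and PLPBP (4.42 kb) and RAB11FIP1 (13.7 kb) for ADGRA2, and none passed with either editor in the edgeR test. PLPBP, a pyridoxal phosphate-binding protein, came nearest with KO, at 40.3 and 36.2 CPM with AAVS1 and 52.2 and 70.4 CPM with HOTSCRAMBL (0.68, SE 0.223, adjusted p = 0.0589), beside 0.50 (SE 0.198, adjusted p = 0.136) with CBE. Its KO difference passed at a minimum count of 50, with DESeq2 and with the older quasi-likelihood method (0.66 to 0.71, adjusted p = 0.00191 to 0.0354), and its CBE difference with DESeq2 (0.49, adjusted p = 0.0492). RAB11FIP1, a trafficking adaptor of RAB11, was at -0.13 and -0.15. LINC02936 had a mean below 1 CPM in each group and values of -2.29 and 2.23, with standard errors of 2.32 and 1.66.

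Within 500 kb of SLC35F5, 15 of 38 genes were tested. With KO 0 passed, and with CBE 1 fell, PSD4, an exchange factor for ARF6 (-0.63, SE 0.125, edgeR adjusted p = 0.00113), lost without the MOLM13 library of either CBE group (-0.51 to -0.42, adjusted p = 0.143 to 0.213). The median log2 fold change of the 15 was 0.07 with KO and -0.51 with CBE. Within 500 kb of ADGRA2, 24 of 43 genes were tested, of which 2 rose with KO and 2 with CBE and 0 fell, with medians of 0.01 and 0.43. Over all tested genes 8.76% passed with KO and 8.83% with CBE, and the counts around ADGRA2 stand near that background. ZNF703, a transcriptional repressor, went from 6.74 and 6.40 CPM to 58.5 and 41.4 CPM with KO (2.91, SE 0.377, edgeR adjusted p = 3.73e-06), and had a CBE value of 0.81 (SE 0.607, adjusted p = 0.508). The difference of the ZNF703 effects between editors did not pass in the main edgeR test (2.11, SE 0.781, adjusted p = 0.175). It passed with DESeq2 (2.135, adjusted p = 0.0041) and with edgeR's older quasi-likelihood method (2.10, adjusted p = 0.00903).

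EIF4EBP1, the inhibitor of the cap-binding protein eIF4E, rose with both editors, from 129.6 and 138.2 CPM to 202.8 and 226.4 CPM with KO (0.68, SE 0.134, edgeR adjusted p = 0.00107) and from 99.9 and 125.5 CPM to 142.5 and 175.8 CPM with CBE (0.50, SE 0.133, edgeR adjusted p = 0.0159). BAG4, a co-chaperone, rose with CBE (0.58, SE 0.164, edgeR adjusted p = 0.0224). The EIF4EBP1 call ended with KO without the OCI-AML4 AAVS1 library (0.60, adjusted p = 0.0866) and with CBE without any of the 4 CBE libraries (0.43 to 0.57, adjusted p = 0.106 to 0.284). The BAG4 call ended without any but the HOTSCRAMBL KO libraries (0.50 to 0.68, adjusted p = 0.0558 to 0.280). With no scaling beyond total counts both CBE calls were lost.

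**Figure D4:**
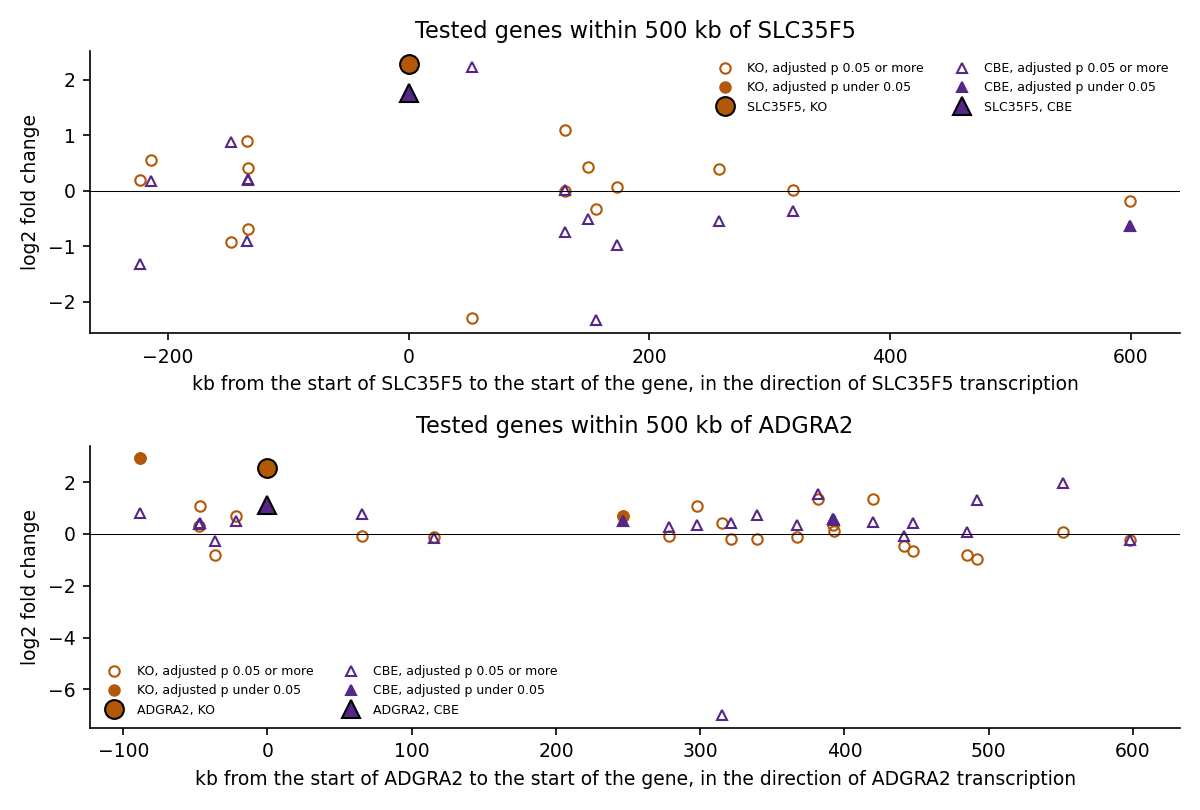
Log2 fold change with KO and with CBE of the tested genes within 500 kb of SLC35F5 and of ADGRA2, by distance between gene starts in kilobases (the 500 kb are counted between gene edges), filled where the adjusted p was under 0.05. SLC35F5 (2.29 and 1.76) and ADGRA2 (2.54 and 1.13) lie at 0, and ZNF703 is the neighbour of ADGRA2 with the highest KO value, 2.91.

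The genes whose pattern over the 8 libraries was most like each member were found by the root mean square difference of mean-centred log2 CPM, over 9645 tested genes with a mean of at least 10 CPM. Since the measure uses the same libraries, their values are given without a test. Closest to SLC35F5 was FECH, ferrochelatase, the last enzyme of haem synthesis, with a difference of 0.130 log2 units against a median of 1.08 over all genes. FECH stood at 10.5 and 13.0 CPM with AAVS1 KO, 51.5 and 61.2 with HOTSCRAMBL KO, 9.93 and 13.2 with AAVS1 CBE and 37.9 and 43.8 with HOTSCRAMBL CBE. NUPR1, a stress-induced chromatin-associated protein, followed at 0.173, from 7.17 to 8.27 CPM in the controls, at 33.0 and 42.2 with HOTSCRAMBL KO and at 24.7 and 24.8 with HOTSCRAMBL CBE. The next were RPL13AP5 at 0.182, RPS27A at 0.184 and the mitochondrial valine transfer RNA MT-TV at 0.193.

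Closest to ADGRA2 were RPL29 at 0.230, RPS27 at 0.231, CTSB at 0.259, RPS18 at 0.263 and CCR2 at 0.268, against a median of 1.12. CTSB, the lysosomal protease cathepsin B, stood at 628.3 and 628.0 CPM with AAVS1 KO, 2504 and 2840 with HOTSCRAMBL KO, 522.9 and 654.3 with AAVS1 CBE and 1561 and 1335 with HOTSCRAMBL CBE. CCR2, the monocyte receptor for the chemokine CCL2, shared with ADGRA2 both the larger KO values and the lower MOLM13 levels, at 224.4 and 344.1, 1079 and 1793, 176.2 and 339.9, and 345.8 and 607.8 CPM in the same order of groups. The ribosomal protein genes among these, and RPL13AP5, have near-identical copies elsewhere in the genome, so their levels are uncertain, because reads that fit several places were not counted. ADGRA2 itself came 91st in likeness to SLC35F5 and SLC35F5 64th in likeness to ADGRA2, at 0.415 log2 units.

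**Figure D5:**
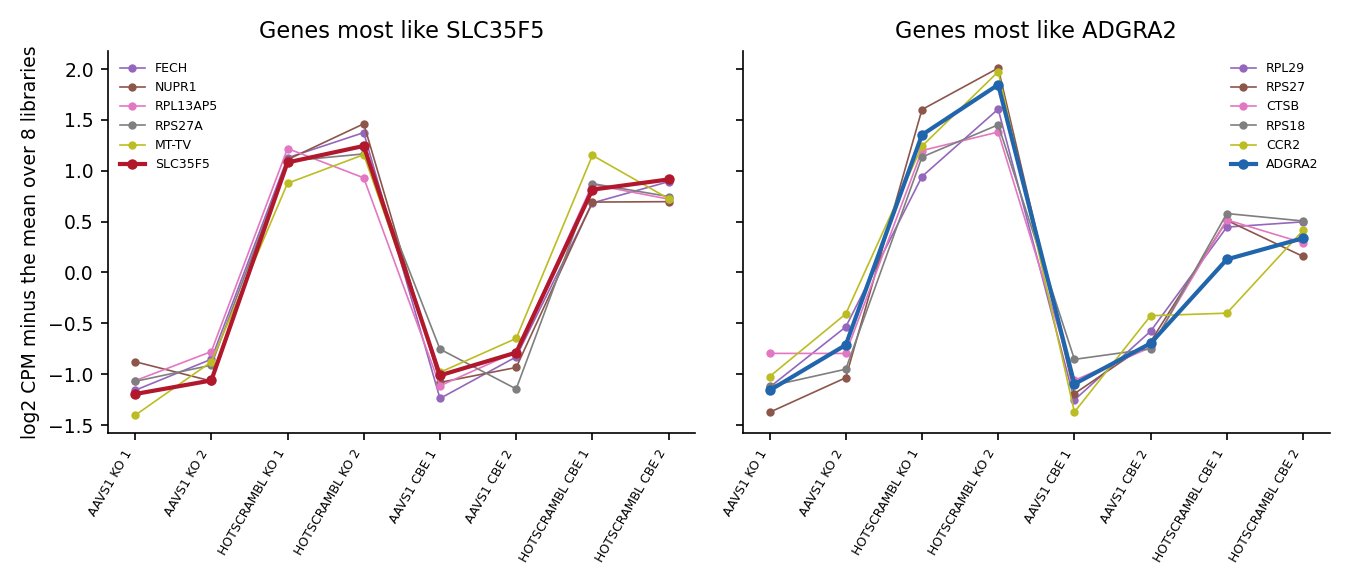
Mean-centred log2 CPM over the 8 libraries for SLC35F5 and ADGRA2, each with the 5 genes whose pattern was most like it. FECH follows SLC35F5 to within 0.130 log2 units (root mean square), and RPL29 follows ADGRA2 to within 0.230.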

How the data were processed

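RNA counts of 8 ChIRP libraries were analysed. The authors deposited raw read counts per gene, made with featureCounts 2.0.6 on GRCh38 and Ensembl 112 per the file headers, unstranded, without reads that fit several genes or places. Per the file headers, both mates of a pair were counted singly: 71.75% to 74.91% of counts from 1 to 20 are even, so counts overstate the number of fragments. The aligner is not given in the sources used here. The records of 2 genes that stood split in the table were rejoined. Ensembl IDs were matched to symbols for 62541 of 63140 genes.

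Genes were kept with edgeR's filterByExpr at a minimum count of 10, scaled by TMM and tested with edgeR 4.0.16 (R 4.3.3; quasi-likelihood, robust, Benjamini-Hochberg threshold 0.05), with group and labelled line in the model and 3 residual degrees of freedom. The line was a term because replicates with the same number came from the same labelled line; their deviations from the group means correlated at 0.0085 to 0.0245. The newer of edgeR's quasi-likelihood methods was taken after the results of both had been seen, and the older one was run as an added alternative. DESeq2 1.42.0 and limma 3.58.1 were other alternatives. The procedure was run on simulated counts with a capped spread and no line effect, in which only genes with many reads were changed. That run did not cover changes in genes with few reads, and no result here rests on it. CPM (counts-per-million of the TMM-scaled library) per kilobase divides by exon length.

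The members and lists were chosen with earlier results of these data known. Named were the members, SLC35F1 to SLC35F6, genes that overlap a member, the nearest tested gene on each side, up to 8 listed genes per family or pathway that passed (and RECK, WNT7A, WNT7B, ADGRA1 and ADGRA3), and the 5 genes most like each member. Promoter sequences came from RefSeq (GRCh38.p14), which held 3 of the 6 SLC35F genes. Depth was 20548300 to 37970163 counts per library.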

Additional observations from a re-analysis of the deposited data

Results flagged for a closer look

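The effect of HOTSCRAMBL editing differed between KO and CBE, by edgeR's test of the difference itself, for 8 of the genes named, 4 of which were named for their likeness to ADGRA2. Over all tested genes 3.19% passed in this contrast. Many genes were named because they passed with KO or CBE, so the 8 cannot be set against that share. For SLC35F5 the KO effect was 0.53 log2 units above the CBE effect and for ADGRA2 1.40 above it. Both differences come from the fold changes on which these genes were chosen. ADGRG5 differed by -1.17, a call lost without any 1 of 7 libraries, all but the OCI-AML4 AAVS1 KO library (-1.34 to -0.90, adjusted p = 0.0697 to 0.319). FZD8 differed by 10.6, a size that depends on the prior count because the HOTSCRAMBL CBE libraries held 0 and 4 reads. RPS27 (1.71), RPS18 (0.98), CTSB (0.78) and CCR2 (1.43) are those 4, and since likeness was measured over these same libraries their differences are a description. CCR2 did not pass with no replicate block (1.45, adjusted p = 0.527) and CTSB did not with limma-voom (0.75, adjusted p = 0.435); the CTSB value ranged from 0.58 to 0.75 (adjusted p = 0.0518 to 0.0820) without any 1 of the OCI-AML4 libraries. The causes were not tested.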

How the results depend on the processing

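Among the named genes, no difference that passed the threshold changed direction under any alternative run. This was checked for the members in every contrast and for the other named genes with KO, with CBE and in their difference. Genes not named were not checked. Without scaling beyond total counts the log2 fold changes of SLC35F5 were 2.13 with KO and 1.63 with CBE, and those of ADGRA2 2.38 and 0.99; SLC35F5 with KO was 2.31 with RLE size factors, 2.32 at a minimum count of 50 and 2.31 with DESeq2. DESeq2 called 4150 genes with KO, 3351 with CBE, 2205 for the difference of the editors, 4032 between the HOTSCRAMBL groups, 35 between the controls, 715 between the lines and 68 for HOTSCRAMBL by line, beside 2108, 2124, 767, 2037, 0, 119 and 0. For the line, limma-voom called 265 genes and the older quasi-likelihood method, added after seeing the data, 193; the latter called 2 for HOTSCRAMBL by line. SLC35F5 between lines was -0.16 with DESeq2 and -0.14 with limma-voom, past the threshold in both. With only the 4 libraries of a contrast, 780 genes were called with KO and 677 with CBE. Calls were lost there for SLC35E2B, ADGRG5, CELSR1 and DVL1 with KO. With CBE they were lost for RECK, SLC35E1, ADGRL1, ADGRB1, FZD8, CSNK1A1, APC, DVL1, PSD4, EIF4EBP1, BAG4, RPS27 and RPL13AP5. Without scaling, CSNK1A1, EIF4EBP1 and BAG4 lost their CBE calls. With RLE size factors DVL1 lost its KO call, with the older quasi-likelihood method ADGRB1 its CBE call, and with limma-voom CTSB its CBE call.

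With no replicate block (labelled line left out), 503 genes were called for the editor difference, and SLC35F5 lost its calls there (0.53) and between the HOTSCRAMBL groups (0.30); the ADGRA2 calls for these comparisons did not change. DVL1 lost its calls with both editors, ADGRL1, CSNK1A1, EIF4EBP1 and BAG4 theirs with CBE, and CCR2 passed in none of KO (2.34, adjusted p = 0.110), CBE (0.89, adjusted p = 0.482) and their difference.

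Leaving out 1 library at a time gave 2.28 to 2.31 for SLC35F5 and 2.45 to 2.60 for ADGRA2 with KO, 1.72 to 1.81 and 1.01 to 1.25 with CBE, 0.48 to 0.58 for the SLC35F5 editor difference, 0.26 to 0.33 between HOTSCRAMBL groups, and -0.45 to -0.34 for ADGRA2 between lines. Calls then numbered 677 to 1674 with KO, 586 to 1885 with CBE, 226 to 372 for the difference, 633 to 1519 between HOTSCRAMBL groups and 26 to 65 between lines. The lone library of a group was there assumed to vary like the others. With 2 libraries a group from different lines, smaller differences may have gone undetected.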
